A study of Mus musculus with 6 samples.

Results

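The components of the mTOR complexes and the Akt kinases were followed in C2C12, an established line of mouse myoblasts that form myotubes in low serum. The 9 genes were Mtor, Mlst8, Deptor, Rptor, Rictor, Mapkap1, Prr5, Akt1 and Akt2, and every non-control probe whose printed RefSeq accession belonged to one of them was taken. This gave 12 of the 39429 probes on the array, 3 for Akt2, 2 for Mapkap1 and 1 for each other gene, and all 9 genes passed the filter on dim probes that left 18635 named genes. Cells transfected with a control siRNA (si-NC, 3 arrays) were set against cells given an siRNA to SYISL, a long non-coding RNA (si-SYISL, 3 arrays), both kept for 2 days in medium with 2% horse serum. All cells were thus transfected and differentiating, and no untransfected or undifferentiated cells were analysed here. The genes were chosen on function and on their processed signal in this same contrast, so their values are given as a description with no test.

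mTOR is a protein kinase that works in separate complexes. In mTORC1 it is joined by Raptor (Rptor), which brings in substrates of protein synthesis and autophagy control, and in mTORC2 by Rictor and mSin1 (Mapkap1), which let it phosphorylate Akt and related kinases. mLST8 belongs to both complexes, Deptor binds and restrains mTOR in both, and Protor-1 (Prr5) binds Rictor. Akt carries the signal of insulin and insulin-like growth factors, and mTOR and Akt activity is known to support the formation and growth of myotubes.

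Each array gave fluorescence intensities, and 78.2% to 84.6% of the spots on si-NC arrays and 87.9% to 90.6% on si-SYISL arrays were well above background. Intensities are given scaled so that all arrays share one 75th percentile. Replicates 1 and 3 of si-NC, and replicates 1 and 3 of si-SYISL, lay closer together than repeated spots of 1 probe on an array do (chi-square per probe 0.252 and 0.214, against 24.7 to 163.5 in the other 13 pairs of arrays), so each such pair was counted as 1 sample and each group had 2 samples. No label says that samples came from separate cultures, so the spread behind the p-values and SEs may be technical. Both come from limma, which draws each gene's variance towards a value fitted on all features (2 residual and 2.371 prior degrees of freedom). An SE can thus be smaller or larger than a gene's own spread gives. For Rictor, the SD of the 2 samples was 0.52 in si-NC and 0.66 in si-SYISL. The reference table assigned 0 probes to SYISL, and how far SYISL was reduced was not analysed here. The median log2 difference of all 28555 features, si-SYISL minus si-NC, was 0.16, and log2 differences below are relative to it, ± SE, with n = 2 samples in each group. Muscle markers were well above background on all 6 arrays for 8 of 8 genes, with a summed scaled intensity of 72990 to 78890 on si-NC arrays and 113300 to 122500 on si-SYISL arrays. The markers did not move as one, since relative to all features Myh3, Ckm, Actc1, Mymk and Tnnt1 differed by 0.62, 0.65, 0.85, 0.38 and 0.66, whereas Myog and Des differed by -0.02 and -0.07 and Myod1, the early myogenic factor, by -0.78. Of 3 neuronal markers, 2 were well above background on all 6 arrays, and their sum was 418.6 to 1829 on si-NC and 2266 to 4082 on si-SYISL arrays, most of it from Snap25. The sums were 266.4 to 300.8 and 271.2 to 349 for 3 adipocyte markers, 1145 to 1184 and 1022 to 1088 for 3 leukocyte markers, and 2334 to 2544 and 2696 to 2786 for 3 endothelial markers. The part of these markers in the differences of the mTOR and Akt genes was not tested. In RNA from whole cultures, fewer cells of a type and less RNA per cell cannot be told apart.

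Rictor stood far from the other 8 genes. Its scaled intensity was 754, 1265 and 768 on the si-NC arrays 1 to 3, against 111, 213 and 113 in si-SYISL. The groups did not overlap, and the highest si-SYISL array lay well below the lowest si-NC array. The log2 difference was -2.83 ± 0.41, that is, 7.11-fold lower relative to the median of all features. By fitted value 15 of the 28555 features, 14 of them named genes, had a lower difference, and these include probes not above background in si-SYISL, such as that of Taf7. Every array of both groups rated the probe well above background, and the lowest signal rated well above background was 11.95 to 19.26 in si-SYISL. Rictor has 1 probe on this array, so no other probe could be set beside it. Replicate 2 gave the highest Rictor signal in both groups. Within the scan that held replicates 1 and 2 the difference was -2.83, and within the scan that held replicate 3 of each group it was -2.86, which is no separate check, since replicate 3 was counted as 1 sample with replicate 1. Over the 20 alternative settings tried it lay between -3.25 and -2.37. A difference taken against another gene of the same array does not depend on the single factor by which each array was scaled. It can still change with another background or with quantile normalisation. Rictor differed from Rptor by -2.87 and from Mtor by -2.82 in this way, which is no separate check, since Rptor and Mtor lay near the median of all features.

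**Figure D1:**
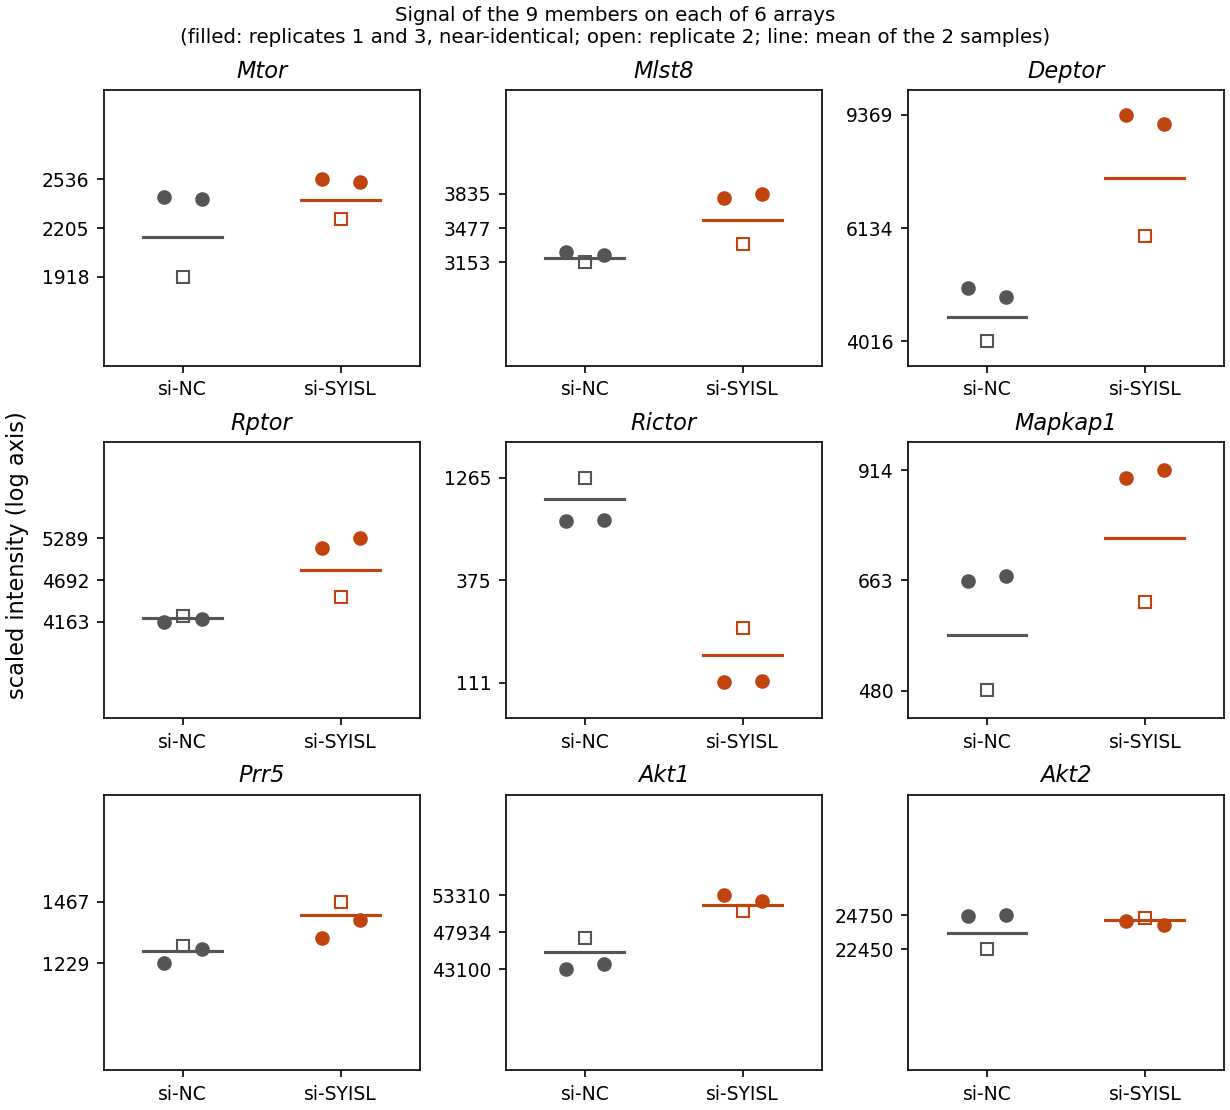
Scaled intensity on a log axis for the 9 genes, with 1 point for each array of si-NC (grey) and si-SYISL (orange); filled points are replicates 1 and 3, open squares replicate 2, and lines the mean of the 2 samples of a group. Panels have their own axes, and Rictor is at 754 to 1265 in si-NC and 111 to 213 in si-SYISL, while Deptor is at 4016 to 4899 and 5954 to 9369.

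The promoters of Rictor and Rptor, which define mTORC2 and mTORC1, are shown because each gene encodes the subunit that sets its complex apart. The sequences are from RefSeq on GRCm38.p6, from 250 bases before to 50 after the gene's start, chr15:6708131-6708430 on the plus strand for Rictor and chr11:119602655-119602954 on the plus strand for Rptor. Capitals mark GGGCGG, the GC box bound by Sp factors, or its complement CCGCCC.
Rictor: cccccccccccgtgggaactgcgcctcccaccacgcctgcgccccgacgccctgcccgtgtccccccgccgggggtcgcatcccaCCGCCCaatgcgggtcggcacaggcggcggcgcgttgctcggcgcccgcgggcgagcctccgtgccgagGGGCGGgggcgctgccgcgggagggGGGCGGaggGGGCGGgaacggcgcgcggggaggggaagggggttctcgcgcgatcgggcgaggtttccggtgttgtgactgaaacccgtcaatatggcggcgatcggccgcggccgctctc
Rptor: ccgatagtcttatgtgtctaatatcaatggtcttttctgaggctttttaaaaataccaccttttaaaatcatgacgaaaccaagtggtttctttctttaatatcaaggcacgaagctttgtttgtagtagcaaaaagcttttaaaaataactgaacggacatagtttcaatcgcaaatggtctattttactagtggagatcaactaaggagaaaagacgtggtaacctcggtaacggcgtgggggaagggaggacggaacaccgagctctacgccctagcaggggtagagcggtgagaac
The Rictor window held 4 matches to the GC box and 47 CG dinucleotides, and the Rptor window held 0 matches and 13. Among all 32851 promoters of this length 35.7% held a match, and the median number of CG dinucleotides was 7. Of the 9 genes, 8 had a promoter in the table, and 6 of these held a GC box in at least 1 of their windows. The E-boxes CAGCTG (16.3% of all promoters) and CACGTG (7.2%) and the FoxO motif GTAAACA or its complement TGTTTAC (3.6%) were absent from both windows. These matches are descriptions of the letters and show no binding.

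The partners of Rictor in mTORC2 did not share its low signal. Mapkap1 encodes mSin1, which holds the complex together and presents Akt. Its brighter probe read 660, 480 and 670 on the si-NC arrays, against 893, 621 and 914 in si-SYISL. Here si-SYISL replicate 2 lay below si-NC replicates 1 and 3, so the groups overlapped. The log2 difference was 0.24 ± 0.26, smaller than its SE, and it was -0.06 with si-SYISL replicates 1 and 3 left out, 0.55 without si-SYISL replicate 2, 0.03 without si-NC replicate 2 and 0.47 with si-NC replicates 1 and 3 left out. The dimmer Mapkap1 probe hardly differed as scaled, with 105, 103 and 103 against 101, 112 and 101. Its log2 difference was 0.04 before the median of all features is subtracted, against 0.41 for the brighter probe, and -0.12 relative to all features. Prr5 encodes Protor-1, which binds Rictor. Its scaled intensity was 1229, 1293 and 1281 on the si-NC arrays, against 1321, 1467 and 1391 in si-SYISL. All si-SYISL arrays lay above all si-NC arrays, by little, and relative to all features the difference was -0.02 ± 0.11.

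Among the genes shared by both complexes, Deptor had the largest difference. Deptor encodes the subunit that binds and inhibits mTOR. Its scaled intensity was 4899, 4016 and 4737 on the si-NC arrays, against 9369, 5954 and 9039 in si-SYISL. The groups did not overlap, and si-SYISL replicate 2 lay closer to the si-NC arrays than replicates 1 and 3 did. The log2 difference was 0.59 ± 0.25, a 1.503-fold higher level relative to the median of all features, and 2162 of the 28555 features had a higher one. The size rested on single samples, being 0.24 with si-SYISL replicates 1 and 3 left out and 0.94 without si-SYISL replicate 2. Within the scan of replicates 1 and 2 it was 0.59, and within that of replicate 3 it was 0.84.

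Mtor itself, the kinase, read 2411, 1918 and 2397 on the si-NC arrays, against 2536, 2264 and 2517 in si-SYISL. The groups overlapped, since si-SYISL replicate 2 lay between si-NC arrays. The log2 difference was -0.01 ± 0.16. Mlst8, the subunit that sits on the kinase domain in both complexes, read 3245, 3153 and 3217 against 3786, 3326 and 3835. Its si-SYISL arrays all lay above its si-NC arrays, but relative to all features the difference was -0.01 ± 0.13. Rptor, the substrate-binding subunit of mTORC1, read 4163, 4236 and 4198 on the si-NC arrays, against 5153, 4469 and 5289 in si-SYISL. These groups did not overlap, and the difference was 0.04 ± 0.13, turning to -0.11 with si-SYISL replicates 1 and 3 left out.

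The Akt kinases, which mTORC2 phosphorylates and which act upstream of mTORC1, differed little. Akt1, expressed in most tissues, read 43100, 47230 and 43730 on the si-NC arrays, against 53310, 50930 and 52410 in si-SYISL. All si-SYISL arrays were higher, and the log2 difference was 0.03 ± 0.12. Akt2, the form most tied to insulin action in muscle and fat, was read by 3 probes. The brightest gave 24710, 22450 and 24750 on the si-NC arrays, against 24330, 24580 and 24110 in si-SYISL, with overlapping groups and a difference of -0.11 ± 0.12. The other probes gave -0.12 and -0.04. Before the median of all features is subtracted, the 3 probes gave 0.05, 0.04 and 0.13, so their negative sign came with that subtraction. On the second probe all si-SYISL arrays lay above all si-NC arrays, by little, which held for 42% of all features. The third probe was the dimmest, at 638, 448 and 646 against 608, 556 and 627, and its spread within si-NC was wider than the shift between groups. No spot of the 12 probes was an outlier on any array.

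**Figure D2:**
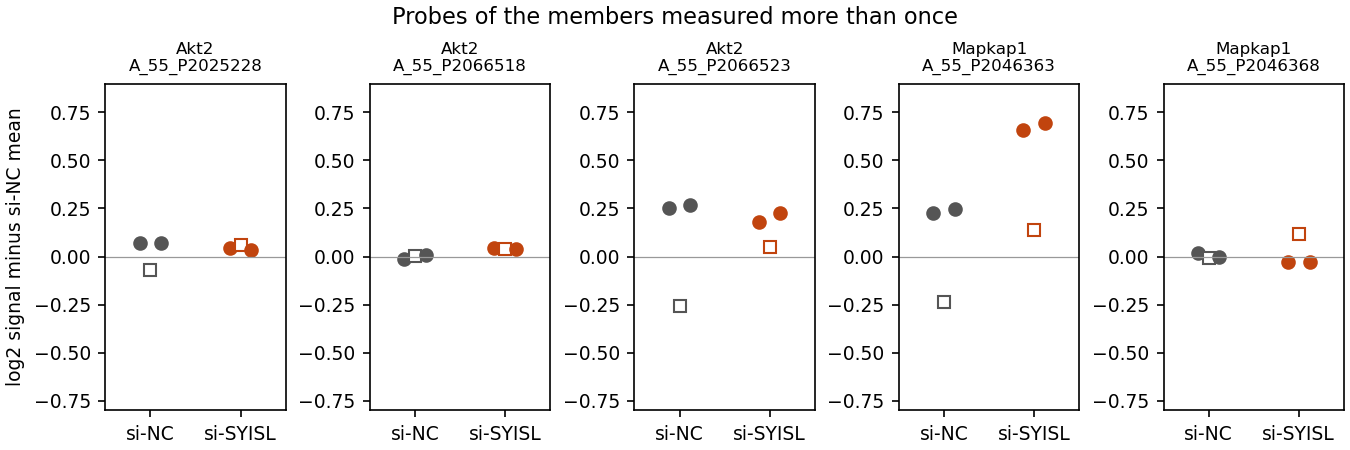
Log2 signal minus the si-NC mean for the 3 probes of Akt2 and the 2 of Mapkap1, with 1 point for each array and symbols as for the scaled intensities. As plotted, before the median of all features is subtracted, the si-SYISL means lie at 0.05, 0.04 and 0.13 for Akt2 and 0.41 and 0.04 for Mapkap1. Relative to all features the 2 Mapkap1 probes gave 0.24 and -0.12.

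Across the 9 genes the differences ran from -2.83 for Rictor to 0.59 for Deptor, with a median of -0.01. Relative to all features 4 were higher and 5 lower. Before that subtraction, 5 genes (Mlst8, Deptor, Rptor, Prr5 and Akt1) had all si-SYISL arrays above all si-NC arrays, which held for 42% of all features, and Rictor was the 1 gene with the opposite, which held for 15%. With each array centred on its median feature, only Deptor stayed above (30.4% of all features) and only Rictor below (20%). Mtor, Mlst8, Rptor, Prr5 and Akt1 lay within 0.04 of the median of all features, less than their SE, and their sign is not settled, since each changed sign in at least 1 alternative setting. Akt2 kept its sign, but its difference of -0.11 ± 0.12 was also smaller than its SE.

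**Figure D3:**
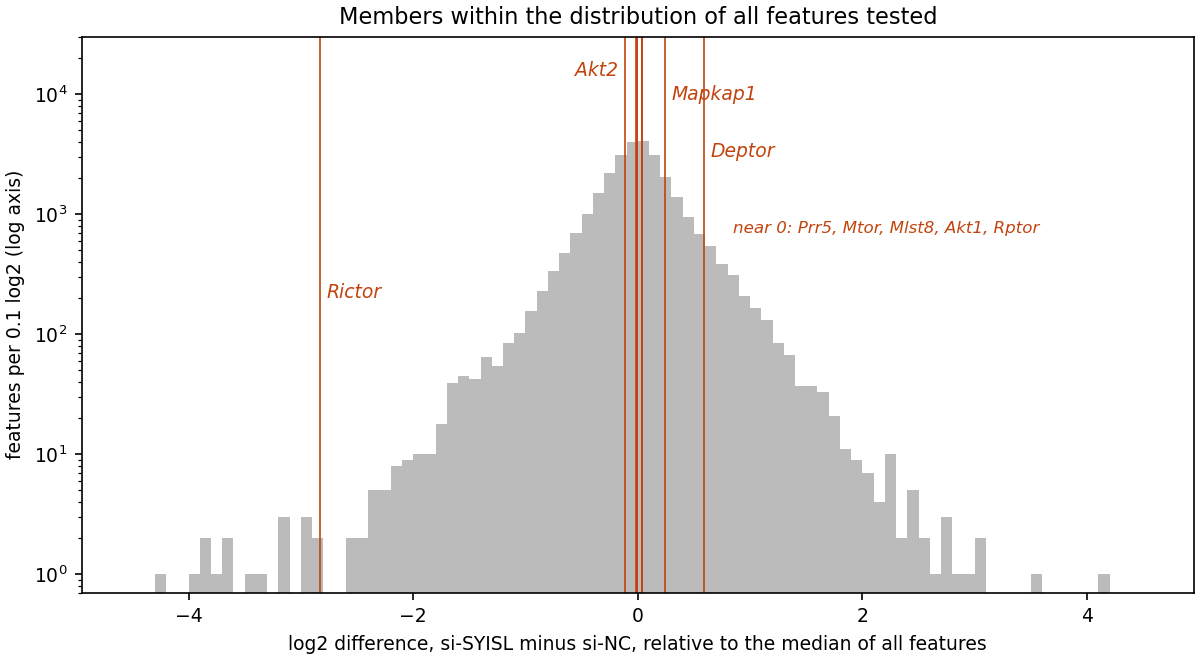
Histogram of the log2 differences of all 28555 features relative to their median, on a log count axis, with orange lines at the 9 genes. Rictor at -2.83 lies in the far lower tail, Deptor at 0.59 on the upper flank, and the other 7 lie between -0.11 and 0.24.

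The genes whose pattern was closest to each member were sought among 18626 other named genes by the root mean square distance of log2 profiles, centred on their own mean, over the 4 samples. For Rictor 0 genes came within 0.1, for Deptor 29 and for Mapkap1 102, the members whose values varied most over the samples. For the flatter members 1121 did for Mtor, 2671 for Rptor, 3125 for Mlst8, 3802 for Akt1, 3812 for Akt2 and 4579 for Prr5. The 3 nearest to Rictor were Taf7, Rab21 (distance 0.204) and Mgst3 (0.314). Taf7 encodes a subunit of the general transcription factor TFIID, and its probe was not well above background on any si-SYISL array. Its signal was thus at least 4.41-fold lower as scaled, before the median of all features is subtracted. The distance of Taf7 and its place in the order cannot be read. Rab21, a small GTPase of endosomes, read 2819, 4748 and 2770 on the si-NC arrays, against 459, 1117 and 462 in si-SYISL, a difference of -2.51 ± 0.51. Mgst3, a microsomal glutathione transferase, read 3642, 5166 and 3578 against 725, 1483 and 710, a difference of -2.23 ± 0.41. In Rab21 and Mgst3, as in Rictor, replicate 2 was the highest array of each group, which their choice by closeness of pattern favours. The nearest to Deptor were Npas1 (distance 0.0179), the stress-induced transcription factor gene Ddit3 (0.0343) and Gm11937 (0.0421). Ddit3 read 2258, 1877 and 2259 on the si-NC arrays, against 4093, 2679 and 4073 in si-SYISL. With 4 samples, such closeness is a description of these arrays. For the nearly flat members the nearest genes were Tmem145, Tceal8 and Fbxw8 for Mtor, Hspa9, Cyp2j6 and Eif6 for Mlst8, Tymp, Spr and Piga for Rptor, Clcn4, Arhgef19 and Pid1 for Prr5, Phpt1 and Mrps18b for Akt1 and Mpp4, Ube3b and E130018N17Rik for Akt2. For Mapkap1 they were 5730416F02Rik, Coro1b and Jph3.

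The rest of the pathway was read from 90 further genes in 6 lists, of which 87 were kept, while Rragb, Grb10 and Foxo4 were not. In limma with Benjamini-Hochberg adjustment over all features, 0 of the 87 and 0 of all 28555 features (0%) passed an adjusted p of 0.05. The test is of the log2 difference as scaled, before the median of all features is subtracted, and that difference is the one printed beside each p below. At an unadjusted p under 0.05, 13 of the 87 were higher and 9 lower, against 16.8% and 5.85% of all features. This split depended on the scaling, with 3 higher and 9 lower for arrays centred on their median feature (10.9% and 8.19% of all features) and 8 higher and 10 lower with quantile normalisation (9.51% and 8.9%). Relative to all features 34 were higher and 53 lower, with a median of -0.05.

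Among the genes that bring the growth factor signal to Akt, 1 of 14 was higher and 3 lower at an unadjusted p under 0.05. Over all features the shares were 16.8% and 5.85%. For centred arrays the counts were also 1 and 3 (10.9% and 8.19% of all features). After adjustment 0 passed, and the median relative difference was -0.18. Igf1r, the receptor of insulin-like growth factors, read 9694, 9074 and 9458 on the si-NC arrays, against 13520, 14190 and 13400 in si-SYISL (log2 difference 0.57 ± 0.11, limma adjusted p = 0.128, and 0.41 relative to all features). Pdpk1 encodes PDK1, the kinase that phosphorylates the activation loop of Akt, and read 21590, 25850 and 21680 against 14090, 16720 and 14270 (log2 difference -0.62 ± 0.16, limma adjusted p = 0.156, and -0.78 relative to all features). Its 3 probes gave relative differences of -0.72, -0.78 and -0.84. Named after their values were seen, the catalytic and regulatory PI3-kinase subunits Pik3ca and Pik3r1 had log2 differences of -0.42 ± 0.13 and -0.57 ± 0.20 (limma adjusted p = 0.181 and 0.209), or -0.58 and -0.73 relative to all features. The other listed subunits, Pik3cb and Pik3r2, hardly differed, by 0.19 ± 0.15 and 0.03 ± 0.15 (limma adjusted p = 0.452 and 0.923). Relative to all features these were 0.03 and -0.14.

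In the branch of TSC, Rheb and AMPK, 1 of 13 genes was higher and 3 lower at an unadjusted p under 0.05 (16.8% and 5.85% of all features). For centred arrays 0 were higher and 3 lower (10.9% and 8.19% of all features). After adjustment 0 passed, and the median relative difference was -0.12. Rhebl1, a relative of the mTORC1 activator Rheb, read 1649, 1716 and 1664 on the si-NC arrays, against 1273, 1314 and 1247 in si-SYISL (log2 difference -0.39 ± 0.11, limma adjusted p = 0.166, and -0.55 relative to all features). Ddit4l, an inhibitor of mTORC1, read 453, 424 and 455 against 350, 339 and 346 (log2 difference -0.35 ± 0.11, limma adjusted p = 0.187, and -0.52 relative to all features). Rheb itself, named after its value was seen, had a log2 difference of -0.41 ± 0.22 (limma adjusted p = 0.315), and relative to all features its 3 probes gave -0.57, -0.57 and -0.13.

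The amino acid branch, in which Rag GTPases bring mTORC1 to the lysosome, had 2 of 25 genes higher and 2 lower at an unadjusted p under 0.05. All features had 16.8% and 5.85%. With centred arrays the branch had 0 higher and 2 lower (10.9% and 8.19% of all features). It had 0 after adjustment, and a median relative difference of -0.05. Rraga, which encodes RagA, read 9879, 11480 and 9908 on the si-NC arrays, against 5914, 7333 and 5863 in si-SYISL (log2 difference -0.70 ± 0.17, limma adjusted p = 0.148, and -0.86 relative to all features). The groups did not overlap. Fnip1, the partner of folliculin, read 23760, 22610 and 23050 against 29610, 30270 and 29620 (log2 difference 0.38 ± 0.11, limma adjusted p = 0.168, and 0.22 relative to all features). Among 6 further complex and assembly genes 1 was higher and 0 lower at an unadjusted p under 0.05, beside the same shares of all features. For centred arrays 0 were higher and 0 lower, and the median relative difference was 0.03. Tti2 and Tti1, of the chaperone complex that assembles mTOR, had log2 differences of 0.40 ± 0.14 and 0.20 ± 0.12 (limma adjusted p = 0.206 and 0.349), or 0.24 and 0.04 relative to all features, where the other Tti2 probe gave -0.02.

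The largest pathway difference lay downstream of mTORC1. Eif4ebp2, a repressor of cap-dependent translation that mTORC1 inactivates, read 6380, 11290 and 6446 on the si-NC arrays, against 2183, 2567 and 2197 in si-SYISL. The groups did not overlap, and the log2 difference was -1.84 ± 0.31 (limma adjusted p = 0.118), or -2.01 relative to all features. Eif4ebp2 passed with normexp background (limma adjusted p = 0.0499) and with a variance trend (0.0402). It also passed with 6 arrays as 6 samples (0.00587), where near-identical arrays count as separate samples. Over the 20 alternative settings its log2 difference lay between -2.252 and -1.435. The first came with si-NC replicates 1 and 3 left out and the second with si-NC replicate 2 left out, each leaving 1 si-NC sample. Like Rictor, Eif4ebp2 was read by 1 probe. Its relative Eif4ebp1 went the other way, with 17230, 18290 and 16730 against 28760, 23140 and 28970 (log2 difference 0.55 ± 0.16, limma adjusted p = 0.167, and 0.39 relative to all features). Of 17 mTORC1 substrates and effectors, 4 were higher and 1 lower at an unadjusted p under 0.05 (16.8% and 5.85% of all features). The counts were 1 and 1 for centred arrays (10.9% and 8.19% of all features). After adjustment 0 passed, and the median relative difference was -0.04.

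Of 12 substrates of mTORC2 and Akt, 4 were higher and 0 lower at an unadjusted p under 0.05 (16.8% and 5.85% of all features), or 1 and 0 for arrays centred on their median feature. After adjustment 0 passed, and the median relative difference was 0.04. Prkca, a protein kinase C whose maturation needs mTORC2, read 3266, 3495 and 3304 on the si-NC arrays, against 4623, 4329 and 4640 in si-SYISL (log2 difference 0.40 ± 0.12, limma adjusted p = 0.170, and 0.24 relative to all features), while its other probe gave -0.20 relative to all features. Ndrg1, whose protein is phosphorylated by the mTORC2-dependent kinase SGK1, read 25700, 23300 and 25860 against 41250, 31900 and 40890 (log2 difference 0.56 ± 0.17, limma adjusted p = 0.178, and 0.40 relative to all features). The Akt-regulated FoxO factors Foxo1 and Foxo3, named after their values were seen, had log2 differences of 0.21 ± 0.12 and 8.7e-05 ± 0.12 (limma adjusted p = 0.323 and 0.9995), or 0.05 and -0.16 relative to all features.

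**Figure D4:**
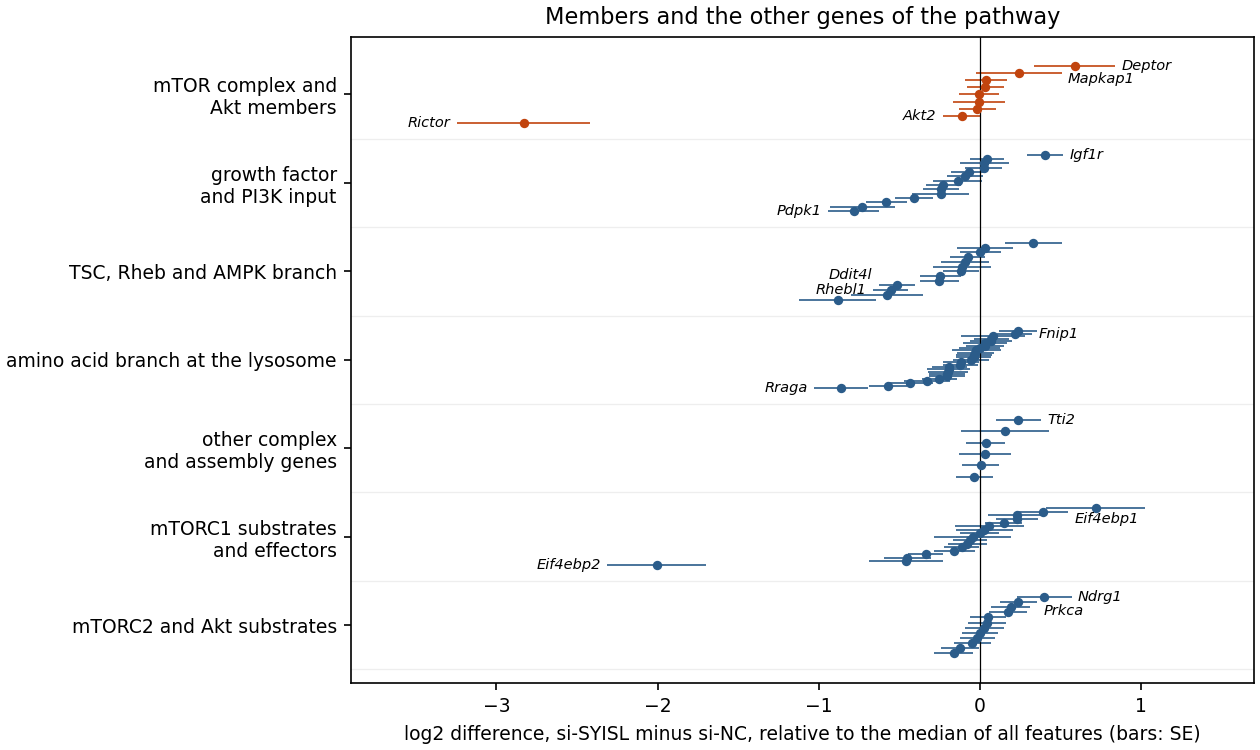
Log2 difference, si-SYISL minus si-NC, relative to the median of all features, with SE bars, for the 9 mTOR and Akt genes (orange) and 87 further pathway genes in 6 lists (blue). Rictor at -2.83 and Eif4ebp2 at -2.01 lie apart from the other genes, which lie between -0.88 and 0.72.

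**Figure D5:**
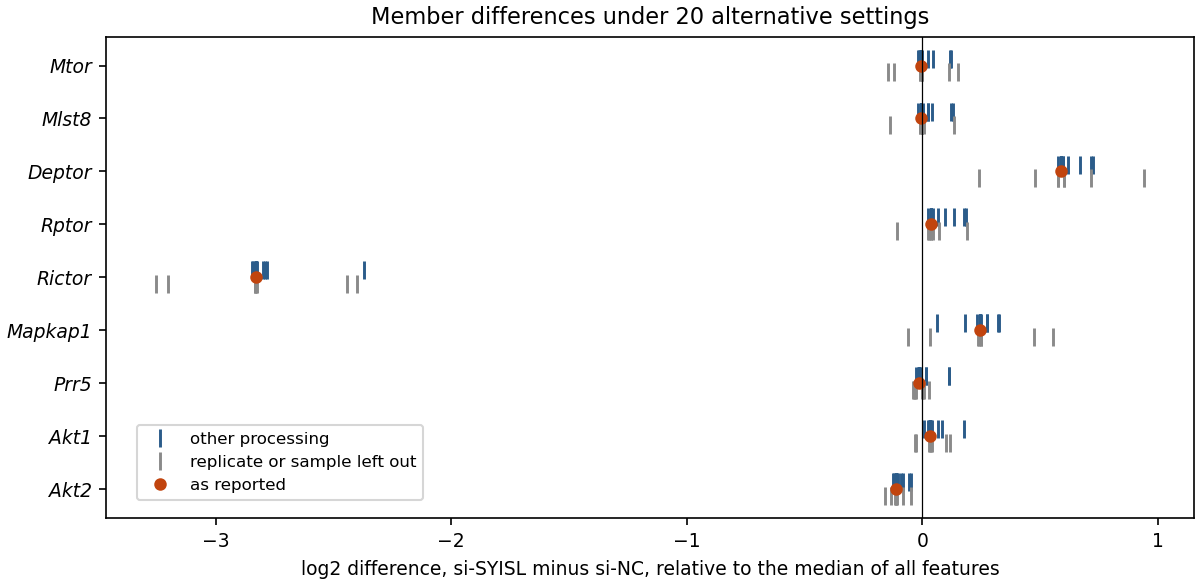
The log2 difference of each of the 9 genes as reported (orange), under other processing (blue) and with a replicate or sample left out (grey), 20 alternatives in all. Rictor lies between -3.25 and -2.37 and Deptor between 0.24 and 0.94, while Mtor, Mlst8, Rptor, Mapkap1, Prr5 and Akt1 have values on both sides of 0.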

How the data were processed

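Samples of 1 µg total RNA were each labelled and read on a single-colour Agilent array, 6 in all. The deposited scanner files hold intensity, which Feature Extraction had background-subtracted and detrended within each array but not normalised between arrays, per the file headers (version 11.0.1.1; the submitters' processing notes give 10.5.1.1). The deposited files also hold flags (unit other) for outliers and background. The authors' series matrix, of 34456 probes with medians of 8.58 on every array, was taken as log2 and used as an alternative only; how the authors normalised it is not given in the sources used here.

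Log2 intensity had each array's 75th percentile subtracted, outlier spots were left out, and spots of a probe were averaged. Accessions (RefSeq list for GRCm38.p6) named 27234 of 39429 probes. A probe was kept if either group had it well above background on each of its 3 arrays, and the brightest probe stood for a gene. Groups were compared with limma 3.58.1 in R 4.3.3 (reading with version 1.17.8 of data.table), two-sided, tested on simulated data first. Promoters and figures used Python 3.11.15, pandas 2.3.3, numpy 2.4.6 and matplotlib 3.10.9. The number of arrays limits the precision.

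The members and lists were chosen with earlier results of these data known. Named genes were the 9 members, the 2 genes of each pathway list with the smallest p, and the 3 genes closest in pattern to each member, of which 1 is not reported here. Alternatives were another background, normalisation, filter, probe summary or variance prior, blocks on replicate number or scan, 6 arrays as samples, and leaving out replicates. Centring on the median feature and leaving out the sample of replicates 1 and 3 were chosen after seeing the data.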

Additional observations from a re-analysis of the deposited data

How the results depend on the processing

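Rictor, Deptor and Akt2 kept their direction in all 20 alternative settings, and Rictor moved by less than its spread between replicates in each. Several of these settings could hardly change that. The variance trend, the replicate block and centring leave relative differences as they were. Rictor and Deptor have 1 probe each, so other filters and probe summaries only shift the median that is subtracted. Leaving out replicate 1 or 3 keeps its near-identical partner. For Akt2 the reported difference was smaller than its SE. With quantile normalisation Mtor, Mlst8 and Prr5 turned to 0.12, 0.13 and 0.11, and with the deposited series matrix to 0.12, 0.12 and 0.11, as the median difference of all features moved to 0.03 in both. Mlst8, reported at -0.01, also turned to 0.13 without si-SYISL replicate 2 (range -0.0095 to 0.1326 over single replicates left out, and as low as -0.1369 with si-SYISL replicates 1 and 3 left out). With a replicate or sample left out Mtor lay between -0.15 and 0.15, Prr5 between -0.04 and 0.03, and Rptor between -0.11 and 0.19. The log2 differences of the 12 named pathway genes kept their direction in all 20 settings, and all 12 passed with 6 arrays as 6 samples. Among settings that keep 2 samples in each group, Igf1r also passed with the variance trend, and Eif4ebp2 with the variance trend and with normexp background. The 6 genes whose groups did not overlap (5 higher and 1 lower, against 42% and 15% of all features) became 2 with arrays centred on the median feature (1 and 1, against 30.4% and 20%). They became 4 with quantile normalisation and 4 with the deposited series matrix. With a replicate or sample left out the count was 6 to 9, but groups of fewer arrays separate more easily. The 9 came with si-NC replicates 1 and 3 left out, which leaves 1 si-NC array. Shares of all features were not counted in those settings. The 0 features that passed the adjusted threshold became 183 with normexp background, 904 with a variance trend, 83 with the scan block and 9762 with 6 arrays as 6 samples, where near-identical arrays count as separate samples. With a replicate or sample left out the range was 0 to 1274, reaching 1274 with si-NC replicates 1 and 3 left out and 291 with si-NC replicate 2 left out. The 0 pathway genes became 1, 2, 0 and 31 in the same settings, and 0 to 1 with a sample left out. Same-numbered samples of both groups share only a number (correlation of their deviations -0.03 over all features). With the replicate block 0 features and 0 pathway genes passed, and 14 in place of 22 pathway genes had an unadjusted p under 0.05. That count was 12 with centred arrays, 46 with 6 arrays as samples and 4 to 22 with a replicate or sample left out (7 with either si-NC sample left out, 13 with si-SYISL replicate 2 left out and 4 with si-SYISL replicates 1 and 3 left out). Over all features the unadjusted count was 4447 to 13483. The causes were not tested beyond these settings. Where a probe was not well above background in a group, as for Taf7 in si-SYISL, only a bound can be read.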
